A study of Arabidopsis thaliana with 12 samples.

Results

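The change in RNA levels between 0 h and 4 h after a spray with 10 µM abscisic acid (ABA) was measured in RNAi-MARS, an Arabidopsis thaliana line in which RNA interference targets MARS, a long non-coding RNA. It was taken from the 6 RNAi-MARS libraries, 3 at each time and named A, B and C, of 12 in all. The other 6 libraries were from the wild type Col-0 at the same times and are used for comparison. All samples were whole seedlings 12 days old, grown on half-strength MS medium with sucrose in long days and sequenced as polyadenylated RNA. The 0 h seedlings had received no spray, and no unsprayed or mock-sprayed seedlings of 4 h are among the samples, so the hormone, the spraying and the hours between the harvests cannot be told apart. The labels do not say which promoter drives the construct or how many lines were used, nor whether separate cultures gave the 3 libraries within a group, so the spread that p-values rest on is that between libraries and may be technical.

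ABA is the hormone that plants make when water is short. It binds receptors of the PYR/PYL family, and the bound receptors hold clade A protein phosphatases (PP2C), which otherwise keep SnRK2 kinases inactive. Released SnRK2 kinases phosphorylate bZIP factors of the ABF group, which bind promoters with the ABA-responsive element (ABRE, core ACGTG), and channels that close stomata. MARS is transcribed from the marneral gene cluster, a set of neighbouring genes for a triterpene made mainly in roots.

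MARS itself, at chromosome 5, 17045300 to 17047240 of TAIR10.1 on the plus strand, was low in every RNAi-MARS library at 0 h, with 5, 3 and 6 counts in libraries A, B and C, and had 67, 58 and 85 counts at 4 h. This corresponds to 0.196, 0.156 and 0.167 CPM (counts scaled to library size) at 0 h and 2.3, 1.34 and 4.11 CPM at 4 h, so the times did not overlap. Its log2 change was 3.82 ± 1.05 (standard error, SE) with an adjusted p of 0.0147, and the call was lost without 0 h library C or both libraries A, or with limma-voom (adjusted p = 0.0559 to 0.11). The Col-0 libraries had 6.63, 2.60 and 0.344 CPM of MARS at 0 h and 21.3, 9.09 and 20.1 CPM at 4 h, above every RNAi-MARS library of the same time. Reads from the RNA interference construct itself, if any, would be counted to MARS too. Of its cluster neighbours, MRN1, the marneral synthase, had a log2 change of 1.46 ± 1.00, CYP705A12 of 0.77 ± 0.86 and CYP71A16 of -0.03 ± 0.69, and none was called. The thalianol cluster, a second root triterpene cluster, has 4 tested members, with log2 changes of -0.94 to -0.33, of which 0 were called by edgeR, 0 by DESeq2 and 0 by limma-voom, with 0 at an unadjusted p under 0.05 in edgeR. The median of these 4 was -0.65, and it was 0.32 without both libraries A and 0.24 without 0 h library A.

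Total counts of the RNAi-MARS libraries lay between 19942905 and 38787804, and across genes the log2 CPM of 2 libraries of 1 group correlated at 0.969 to 0.991. The counts of each such pair were further apart than sampling noise would make them (chi-square divided by its degrees of freedom at least 5.31). Markers of root hairs, endodermis, vascular tissue, stomata and epidermis were all present, and none of the 9 seed storage genes passed the filter on low counts. Root markers differed between libraries of the same group. The summed level of 8 root hair genes was 41.4, 12.7 and 16.8 CPM at 0 h and 7.05, 21.4 and 21.9 CPM at 4 h, so library A was the highest at 0 h and the lowest at 4 h. At 4 h, library B had the lowest summed level of 26 photosynthesis genes (71500 CPM beside 106000 and 98400) and the highest of 19 defence genes (324 CPM beside 187 and 178).

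The response was broad. Of 22465 features tested, 9567 (42.6%) passed an adjusted p of 0.05 (Benjamini-Hochberg), 4849 higher (21.6%) and 4718 lower (21.0%) at 4 h. Large changes were mostly rises. A change of at least 2-fold was called upward for 1922 features (8.56%) and downward for 991 (4.41%), of at least 8-fold for 355 and 27, and of at least 32-fold for 90 and 3. The median log2 change over all tested features was -0.02. For the gene lists below, the shares to set beside their counts are 21.6% higher and 21.0% lower. The 3 libraries at 4 h all lay above the 3 at 0 h for 26.0% of features and all below for 26.4%. Genes that rose by at least 4-fold held 0.583%, 0.498% and 0.479% of the counts at 0 h and 4.11%, 4.32% and 4.53% at 4 h. Those that fell by at least 2-fold went from 10.9%, 11.0% and 11.3% to 4.69%, 3.50% and 4.26%. In RNA of whole seedlings, fewer cells of a type and less RNA per cell cannot be told apart.

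In absolute terms the largest gain was that of CAT3, a catalase that breaks down hydrogen peroxide. Its level was 839, 954 and 793 CPM at 0 h and 2740, 3050 and 2790 CPM at 4 h, a log2 change of 1.73 ± 0.12. Each 4 h library was above every 0 h library. The features next in gain included cold and drought proteins and enzymes of stress metabolism. COR47 rose from 194 to 1900 CPM, a log2 change of 3.29 ± 0.25, and RD22 rose from 253 to 1640 CPM, a log2 change of 2.69 ± 0.22. LTI78 rose from 22 to 1070 CPM, a log2 change of 5.60 ± 0.28, and COR413-PM1 rose from 119 to 1010 CPM, a log2 change of 3.08 ± 0.24. KIN2 (3.88 ± 0.20), COR15A (7.61 ± 0.55) and AT1G13930, annotated as oleosin-B3-like (3.34 ± 0.19), belong to the same set. ADC2, which makes the first intermediate of polyamines from arginine, rose from 442 to 1450 CPM, a log2 change of 1.72 ± 0.17. The jasmonate enzyme LOX2 rose from 84.3 to 987 CPM, a log2 change of 3.55 ± 0.53. VSP2 (4.73 ± 0.86), GSTF9 (1.57 ± 0.14), AT4G23670 (1.05 ± 0.20), AT1G09310 (1.33 ± 0.20) and the nitrilase NIT1 (1.05 ± 0.14) completed the list. Counts of KIN2, GSTF9 and NIT1 hold divided reads in at least 6 of the 12 libraries, so their values are uncertain.

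Among the 15 called and separated features with the largest losses in CPM, RCA, the activase of Rubisco, stood at 12000, 11500 and 11700 CPM at 0 h and 4020, 2710 and 3570 CPM at 4 h, a log2 change of -1.77 ± 0.18 (adjusted p = 2.27e-05). Every 4 h library was below every 0 h library. FBA2 fell from 3450 to 1060 CPM, a log2 change of -1.70 ± 0.17, and its plastid sister aldolase FBA1 fell from 2130 to 436 CPM (-2.29 ± 0.20). The carbonic anhydrase CA2 fell from 2140 to 426 CPM, a log2 change of -2.33 ± 0.20. CAT2, the catalase of photorespiration, fell from 1910 to 493 CPM (-1.96 ± 0.20) while CAT3 rose. GGT1 (-1.07 ± 0.15) and GLDP1 (-1.52 ± 0.21), both of the photorespiratory cycle, and the Calvin cycle gene GAPA (-1.55 ± 0.17) also fell. Counts of CA2 hold divided reads in at least 6 of the 12 libraries, and exons of GAPA overlap a neighbour on the same strand, so their values are uncertain.

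Among called features with separated groups and a mean of at least 5 CPM at 4 h, the largest fold changes were those of genes close to silent at 0 h. AT3G02480, a late embryogenesis abundant (LEA) family protein, went from 1.06, 0.622 and 0.668 CPM at 0 h to 365, 357 and 432 CPM at 4 h, a log2 change of 8.93 ± 0.64. LTP4, a lipid transfer protein, went from 0.822, 0.207 and 0.139 CPM to 212, 199 and 123 CPM (8.87 ± 0.78). In both genes the groups were far apart in all libraries. ELI3-2, an alcohol dehydrogenase (8.96 ± 1.44), AT2G38240, an oxygenase family protein (8.59 ± 1.26), AT4G33467 (8.53 ± 0.52), BGLU24 (7.80 ± 0.49) and NATA1, an acetyltransferase family protein (7.33 ± 1.00), rose from means under 0.5 CPM, as did the DnaJ-domain genes AT5G23240 (6.96 ± 0.34) and AT1G56300 (6.82 ± 0.20). UGT76E12 and HSFA6B had only 3 counts each over the 3 libraries at 0 h, against 1435 and 510 at 4 h. The ELI3-2 call was lost with limma-voom (adjusted p = 0.0597).

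Among called and separated features with a mean of at least 5 CPM at 0 h, the deepest fall was that of LHY, a morning factor of the circadian clock described below, and next came MEE3, also a MYB-like factor, which fell from 6.77 to 0.474 CPM (-3.87 ± 0.40). GSTF14 (-3.39 ± 0.51), the auxin-response (SAUR-like) gene AT1G20470 (-3.30 ± 0.32), the chitinase-domain gene AT4G19820 (-3.16 ± 0.27) and CRK30 (-3.05 ± 0.72), a receptor-like kinase, were among the next. Also in this set, COL2, a CONSTANS-like factor, fell from 225 to 25.2 CPM (-3.16 ± 0.19) and BT5, a BTB and TAZ domain protein, from 213 to 31.3 CPM (-2.78 ± 0.33).

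In the core of the ABA pathway, 6 of the 9 tested receptors fell and 7 of the 9 phosphatases rose. Of 14 PYR/PYL receptor genes, 9 passed the filter, with 6 lower and 1 higher, beside 21.0% and 21.6% of all features, with a median log2 change of -0.83. The number lower was 5 with DESeq2, and the median lay between -0.83 and -0.24 over the alternatives, in which 9 to 14 receptors were tested. PYL4 stood at 54.9, 117 and 96.6 CPM at 0 h and 21.6, 22.5 and 25.8 CPM at 4 h (-1.94 ± 0.28, adjusted p = 0.000327), and its groups did not overlap. PYR1 fell from 70.5 to 39.7 CPM, a log2 change of -0.83 ± 0.07. PYL6 (-3.06 ± 0.67) and PYL2 (-1.39 ± 0.37) fell from low levels, PYL1 by little (-0.26 ± 0.10), and PYL5 from 44 to 13.4 CPM (-1.73 ± 0.47). The PYL5 call was lost without 0 h library B, 4 h library A or 4 h library B (adjusted p = 0.0525 to 0.0548), and the PYL1 call was lost without 0 h library B, 0 h library C, 4 h library A or 4 h library B, or without any 1 of 5 of the Col-0 libraries, or with RLE size factors, no filter on low counts, DESeq2 or the RNAi-MARS groups alone (adjusted p = 0.0513 to 0.193). PYL7 rose slightly (0.38 ± 0.09), and the number that rose was 2 without both libraries A, 0 h library B or 4 h library A, or without Col-0 0 h library C or Col-0 4 h library C, and 3 without 4 h library C, or without Col-0 0 h library A or Col-0 4 h library B, or with no filter on low counts. PYL8 and PYL9 (-0.22 ± 0.18) were not called. PYL3, PYL10, PYL11, PYL12 and PYL13 were too low to test.

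The clade A phosphatases moved the other way. All 9 were tested and 7 rose, with a median of 2.22, and none fell. HAI3, one of the highly ABA-induced phosphatases, stood at 0.157, 0.104 and 0.0835 CPM at 0 h and 12.9, 9.33 and 19.5 CPM at 4 h (6.89 ± 0.59, adjusted p = 9.36e-06). HAI2 rose from 0.666 to 24.8 CPM, a log2 change of 5.23 ± 0.70, and HAI1 rose from 7.79 to 86.6 CPM, a log2 change of 3.48 ± 0.58. In all 3 genes every 4 h library was above every 0 h library. ABI2 (2.38 ± 0.18), ABI1 (2.22 ± 0.17), PP2CA (1.90 ± 0.26) and HAB2 (0.83 ± 0.15) rose from higher starting levels. AHG1 (1.37 ± 0.67) and HAB1 were not called. Per kilobase of exon, the highest mean levels of the family at 4 h were those of PP2CA with 101 CPM and ABI1 with 95.5 CPM, and HAI3 reached 9.31 CPM.

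**Figure D1:**
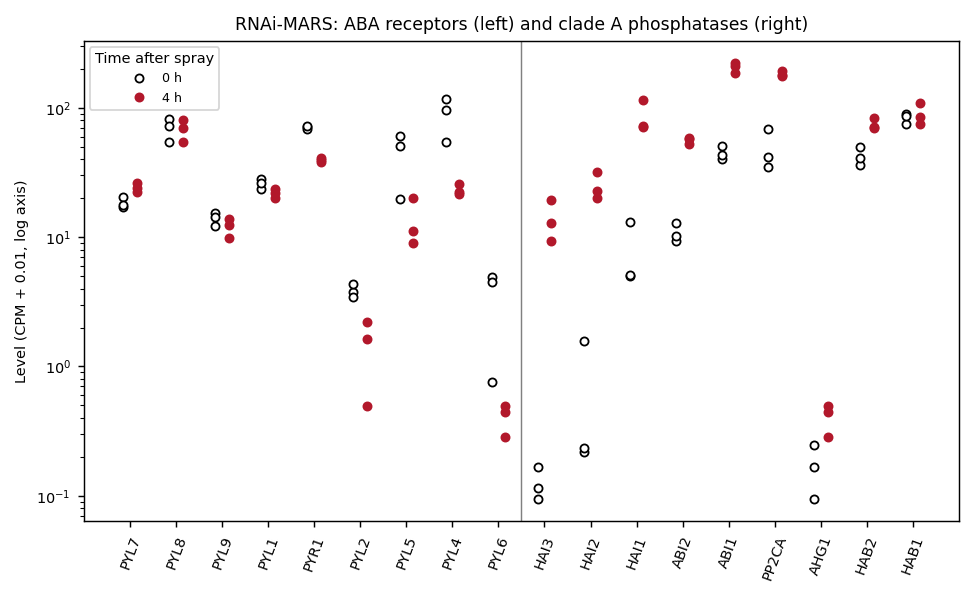
Level in every RNAi-MARS library of the tested ABA receptors and clade A phosphatases, in CPM on a log axis (CPM plus 0.01), with open circles for the 3 libraries at 0 h and filled circles for the 3 at 4 h. Most receptors stand lower at 4 h and most phosphatases higher, with HAI3 going from 0.115 to 13.9 CPM on average.

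Among the SnRK2 kinases, 7 of 10 rose and 1 fell. SNRK2.9 rose from 1.28 to 11.7 CPM, a log2 change of 3.20 ± 0.18, and SNRK2.7 rose from 4.12 to 15.8 CPM, a log2 change of 1.93 ± 0.25. SNRK2.2 (1.58 ± 0.09) and SNRK2.3 (1.61 ± 0.10), which act in ABA signalling in seedlings, both rose, and OST1, the kinase of the guard cell, rose by 0.65 ± 0.10. SNRK2.8 fell from 43.3 to 18.9 CPM (-1.20 ± 0.16). Of 8 tested group A bZIP factors 5 rose and none fell. ABF1, with 2.78, 2.7 and 2.37 CPM at 0 h and 46, 46.9 and 48.3 CPM at 4 h, rose by 4.18 ± 0.10 with the smallest adjusted p of all features (1.09e-09). ABI5 rose from 0.414 to 4.41 CPM, a log2 change of 3.46 ± 0.34. ABF2 (0.92 ± 0.18) and ABF3 (0.79 ± 0.18) rose less. The AFP proteins, which bind ABI5 and dampen its action, rose in 3 of 4 cases, with AFP1 at 2.97 ± 0.26, AFP3 at 2.83 ± 0.31 and AFP2 at 0.91 ± 0.15. In the MAP kinase cascade downstream of the SnRK2 kinases, 5 of 7 genes rose, led by MAPKKK18, which stood at 0.862, 0.622 and 0.919 CPM at 0 h and 16.9, 28.7 and 24.3 CPM at 4 h (4.82 ± 0.34). MAPKKK17 rose by 2.05 ± 0.32 and MPK7 by 1.98 ± 0.13.

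Genes that remove ABA and genes that make it both included rises. CYP707A enzymes hydroxylate ABA and start its breakdown, and all 4 rose. CYP707A1 went from 5.33, 2.8 and 3.4 CPM to 55.6, 53.2 and 58.9 CPM (3.85 ± 0.31), with no overlap of the groups. CYP707A2 (3.68 ± 0.29), CYP707A4 (2.03 ± 0.23) and CYP707A3 (0.65 ± 0.21) rose too, the last a call lost without 0 h library A, 0 h library C, 4 h library B or 4 h library C (adjusted p = 0.053 to 0.103). BGLU18, which frees ABA from its glucose ester, rose from 118 to 858 CPM (2.86 ± 0.38). The conjugating enzymes UGT71B6 (1.05 ± 0.58) and UGT71C5 (0.30 ± 0.15) and the glucosidase BGLU33 were not called. In all, 5 of 8 genes of breakdown, conjugation and release from the conjugate rose, the 4 CYP707A genes and BGLU18, and none fell (median 1.54). Of 7 tested synthesis genes 4 rose and 1 fell (median 0.42). NCED3, the cleavage step that limits stress-induced ABA, rose from 9.38 to 25.4 CPM (1.44 ± 0.38), a call lost without 0 h library C (adjusted p = 0.0503). AAO3 (0.74 ± 0.18) and ABA3 (0.66 ± 0.11), of the last step, rose, and ABA1, the epoxidase of an early step, fell from 563 to 395 CPM (-0.51 ± 0.13).

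Every tested dehydrin and every tested cold and drought protein rose. Dehydrins are unfolded, water-binding proteins that accumulate in drying tissue, and all 7 tested rose (median 3.29). LTI30 stood at 9.05, 20.3 and 13.5 CPM at 0 h and 348, 418 and 525 CPM at 4 h (4.92 ± 0.28, adjusted p = 5.87e-07). RAB18, the classic ABA-response dehydrin, was at 29.6, 9.54 and 10.2 CPM and 150, 162 and 187 CPM (3.33 ± 0.62). Both were separated between the times, and RAB18 was higher in 0 h library A than in B and C. ERD10 rose from 81.6 to 798 CPM, a log2 change of 3.29 ± 0.25, XERO1 rose by 3.07 ± 0.51, ERD14 by 1.63 ± 0.17 and HIRD11 by 1.40 ± 0.12. All 13 cold and drought proteins rose as well (median 4.67), from 1.74 ± 0.45 for RCI2B to 7.61 ± 0.55 for COR15A. COR15A and its neighbour COR15B protect chloroplast membranes, and their summed level went from 12.7, 3.42 and 5.29 CPM to 1480, 1150 and 1300 CPM, a 183-fold ratio of means. KIN1 and KIN2 together went from 119, 96.7 and 98.3 CPM to 1910, 1740 and 1900 CPM, a 17.7-fold ratio. LTI65 (6.37 ± 1.09) and LTI78 (5.60 ± 0.28) are neighbours that share a response to dehydration.

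Of 11 other LEA genes tested, 10 rose and none fell (median 5.58). LEA7 stood at 1.61, 0.259 and 0.613 CPM at 0 h and 126, 140 and 234 CPM at 4 h (7.62 ± 1.04), LEA4-5 rose by 5.87 ± 0.54 and the LEA-domain gene AT3G17520 by 6.37 ± 0.88. The seed LEA gene EM6 went from 0.231 to 8.53 CPM (5.16 ± 0.40). SAG21 was not called. Lipid transfer proteins split by member. LTP4, LTP3 (6.74 ± 0.85), LTP2 (2.63 ± 0.29) and LTP1 (1.21 ± 0.15) rose, and the other 4 tested were not called, with LTP6 at -0.71 ± 0.30 (called lower without 4 h library A or both libraries A, or with DESeq2, adjusted p = 0.0154 to 0.0418). Counts of LTP2 and LTP1 hold divided reads in at least 6 of the 12 libraries, so their values are uncertain.

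Windows of 300 bases before the annotated start of 20765 tested protein-coding genes were searched on both strands for the ABRE core ACGTG, the G-box CACGTG, which contains that core on both strands, the DRE core CCGAC and the evening element AAATATCT. The ABRE core was in 52.9% of the windows of 327 genes that rose by at least 8-fold, 40.8% of 382 that rose 4-fold to 8-fold, 34.8% of 1084 that rose 2-fold to 4-fold and 28.6% of 2844 that rose less. It was 25.7% of the 11588 genes not called, 22.6% of 3633 that fell by less than 2-fold and 24.4% of 907 that fell by more, beside 26.7% of all windows. The G-box was in 24.5% of windows of the first class and 8.10% of all, and the DRE core in 21.7% and 14.8%. The evening element was in 13.5% of windows of genes that rose at least 8-fold, 3.31% of those that fell by at least 2-fold and 5.79% of all. These shares are descriptions with no test.

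**Figure D2:**
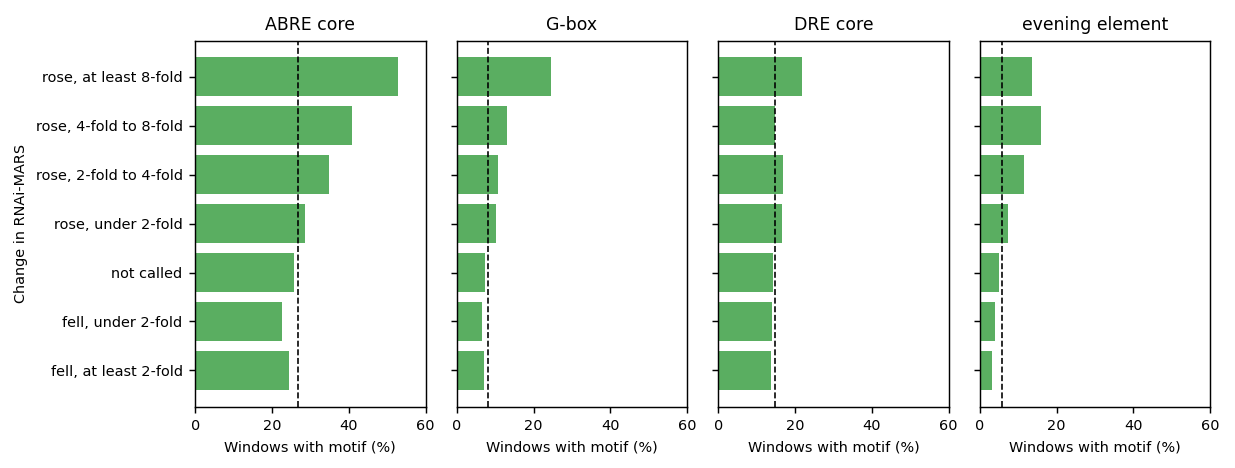
Share of promoter windows (300 bases before the gene start) that hold each of the 4 motifs, in percent, by size and direction of the change in RNAi-MARS, with a dashed line at the share over all 20765 windows. For the ABRE core the share climbs from 22.6% among genes that fell by less than 2-fold to 52.9% among those that rose by at least 8-fold.

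LTI65, LEA7 and HAI2 are shown because each rose more than 32-fold and holds several ABRE cores, which are in capitals in either orientation. In LTI65 (chr5:21236721-21237020 on the plus strand) they begin 143, 61, 38 and 10 bases before the gene start. In LEA7 (chr1:19619424-19619723 on the plus strand) the cores at 218 and 217 form a G-box, and in HAI2 (chr1:2282829-2283128 on the minus strand) those at 165 and 160 adjoin. All coordinates and sequences are from the RefSeq annotation of TAIR10.1, written 5′ to 3′ toward the gene.
LTI65: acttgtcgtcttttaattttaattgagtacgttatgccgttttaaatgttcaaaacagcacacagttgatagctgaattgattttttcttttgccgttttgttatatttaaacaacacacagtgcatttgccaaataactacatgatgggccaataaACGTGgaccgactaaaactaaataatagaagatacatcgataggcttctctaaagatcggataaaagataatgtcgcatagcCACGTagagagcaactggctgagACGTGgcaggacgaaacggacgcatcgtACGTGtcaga
LEA7: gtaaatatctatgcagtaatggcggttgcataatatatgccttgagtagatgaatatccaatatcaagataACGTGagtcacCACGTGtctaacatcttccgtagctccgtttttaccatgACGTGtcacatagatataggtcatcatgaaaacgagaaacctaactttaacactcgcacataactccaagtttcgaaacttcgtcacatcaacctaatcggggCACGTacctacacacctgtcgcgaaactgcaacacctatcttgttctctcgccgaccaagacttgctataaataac
HAI2: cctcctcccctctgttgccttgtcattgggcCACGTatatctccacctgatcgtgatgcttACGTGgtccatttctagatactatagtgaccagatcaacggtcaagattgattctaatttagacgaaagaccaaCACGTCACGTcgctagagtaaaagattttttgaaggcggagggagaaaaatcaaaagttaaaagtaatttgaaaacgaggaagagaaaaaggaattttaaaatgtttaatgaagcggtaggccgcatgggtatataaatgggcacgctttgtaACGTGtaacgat
LTI78 (chr5:21240417-21240716 on the plus strand) is shown as the neighbour of LTI65 that has no ACGTG in this window and holds the DRE core CCGAC, in capitals, 140, 90 and 33 bases before the start.
LTI78: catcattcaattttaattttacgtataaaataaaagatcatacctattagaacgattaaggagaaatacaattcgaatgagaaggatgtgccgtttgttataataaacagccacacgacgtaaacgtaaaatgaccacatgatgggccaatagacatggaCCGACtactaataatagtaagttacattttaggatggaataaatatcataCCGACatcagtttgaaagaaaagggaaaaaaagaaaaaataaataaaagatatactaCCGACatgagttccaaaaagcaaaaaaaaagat

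Of 8 proline genes 3 rose and 2 fell, beside 21.6% and 21.0% of all features. P5CS1, the stress-induced step of proline synthesis, rose from 268 to 585 CPM (1.12 ± 0.33), a call lost without 0 h library B, 0 h library C or 4 h library B (adjusted p = 0.0589 to 0.069). Its paralogue P5CS2 (-0.84 ± 0.13) and P5CR (-1.11 ± 0.09), the next step, fell, and P5CDH, of proline breakdown, rose (0.81 ± 0.10). Galactinol synthases start the raffinose pathway, and GOLS4 (2.02 ± 0.43) and GOLS3 (1.95 ± 0.31) rose, as did GOLS2 (2.02 ± 0.62), whose call was lost without 0 h library B, 0 h library C or 4 h library B, or with no filter on low counts (adjusted p = 0.0561 to 0.0856). GOLS1 (0.73 ± 0.31) and RS5 (0.43 ± 0.18) were not called. Of 17 starch genes 11 rose and 3 fell (median 1.33). Among enzymes that phosphorylate or degrade starch, SEX1 went from 43.1 to 247 CPM (2.52 ± 0.16), ISA3 rose by 2.97 ± 0.13, AMY1 by 2.81 ± 0.53 and the cytosolic amylase BAM5 by 5.92 ± 1.01. GBSS1, which makes amylose, fell from 287, 257 and 284 CPM to 70.5, 80.5 and 32.8 CPM (-2.17 ± 0.28), and BAM3, the main leaf amylase of the night, fell too (-1.48 ± 0.21). Counts of P5CR hold divided reads in at least 6 of the 12 libraries, and exons of AMY1 overlap a neighbour on the same strand, so their values are uncertain.

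Of 12 genes for breakdown of branched-chain amino acids 6 rose, led by BCAT2 (2.04 ± 0.43), and the number that rose was 3 without 0 h library A, 0 h library C or 4 h library C. Of 9 sugar transporters 5 rose and 1 fell. STP13 rose from 4.45 to 66.1 CPM (3.90 ± 0.41), ESL1 by 2.82 ± 0.20 and the sucrose exporter SWEET12 by 2.80 ± 0.19, while its paralogue SWEET11 fell (-0.60 ± 0.13). Of 8 genes marking low energy 2 rose and none fell, beside 21.6% and 21.0% of all features. The number that rose was 1 without both libraries A, 0 h library B, 0 h library C, 4 h library A or 4 h library B, or with limma-voom or no filter on low counts, and the number that fell was 1 with DESeq2, limma-voom or the replicate block, and 2 without 4 h library C. DIN11 rose (3.45 ± 0.84), and ASN1 (0.89 ± 0.39) was not called.

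Of 12 stress NAC factors 8 rose, and NAC019 stood at 0.94, 0.415 and 0.724 CPM at 0 h and 45.9, 60.5 and 45.7 CPM at 4 h (6.14 ± 0.36). RD26 (2.48 ± 0.21), NAC055 (2.24 ± 0.29) and ORE1 (1.87 ± 0.36) followed, while NAP (-0.39 ± 0.16), a senescence factor, was not called. Of 15 HD-Zip I factors 7 rose and 2 fell, beside 21.6% and 21.0% of all features. HB7 stood at 2.37 ± 0.23, HB6 at 1.45 ± 0.10, HB16 at -0.56 ± 0.09 and HB23 at -0.80 ± 0.16. Among the CBF and DREB2 factors, which bind the DRE, 7 of 8 rose (median 3.62). CBF1, CBF2 and CBF3 lie side by side, and their summed level went from 0.470, 0.778 and 0.947 CPM to 7.53, 6.36 and 7.63 CPM. DREB2A rose from 1.18 to 18 CPM (3.88 ± 0.29) and DREB2B by 3.35 ± 0.37. MYB2 (4.84 ± 0.60), MYB102 (4.70 ± 0.57) and MYB74 (2.77 ± 0.29) led the 8 of 14 MYB, WRKY and zinc finger factors that rose. NF-YA5 (1.53 ± 0.38) was 1 of 3 NF-YA genes that rose among 10, beside 21.6% of all features, and the number was 6 without 4 h library C.

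Suberin is a lipid polyester that seals the root endodermis, and 14 of 18 of its genes rose with none lower (median 1.86). The factor MYB41 went from 1.17, 0.83 and 0.78 CPM to 6.57, 7.69 and 10.3 CPM (3.13 ± 0.30), with the groups apart, the elongase KCS2 from 13.5 to 116 CPM (3.11 ± 0.29), the feruloyl transferase ASFT from 21.4 to 153 CPM (2.84 ± 0.22) and GPAT5 by 2.75 ± 0.33. Beside these, of 9 endodermis markers 0 were called by edgeR, 0 by DESeq2 and 0 by limma-voom, with 0 at an unadjusted p under 0.05 in edgeR. Library A at 4 h, the lowest in endodermis markers, had 34.9 CPM summed over the 9 beside 74.9 and 75.8 CPM in B and C. Of 16 wax genes 11 rose (median 0.73). CER1, of alkane synthesis in the cuticle, rose from 20 to 197 CPM (3.30 ± 0.29), the wax ester synthase WSD1 by 2.23 ± 0.37, KCS1 by 1.32 ± 0.16 and their regulator MYB96 by 1.27 ± 0.11.

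Of 18 aquaporins 5 fell and 1 rose, beside 21.0% and 21.6% of all features (median -0.12). PIP2;5 rose (0.99 ± 0.13), and PIP1;5 (-0.87 ± 0.23) and PIP1;2 (-0.52 ± 0.13) were among those lower. The number lower was 2 without both libraries A, and 3 without 0 h library B or 4 h library B. Of 15 guard cell genes 4 rose and 2 fell, beside 21.6% and 21.0% of all features. GORK, the potassium exit channel, rose from 11.7 to 40.8 CPM (1.80 ± 0.22) and SLAC1, the anion channel that starts closure, from 4.26 to 11.4 CPM (1.42 ± 0.20). GHR1, a kinase that activates SLAC1, fell from 19.5 to 9.28 CPM (-1.07 ± 0.11). The inward potassium channels KAT1 and KAT2 were not called. The number that rose was 2 without 0 h library B or 4 h library B, and the number that fell was 1 without 0 h library B or 0 h library C, or without any 1 of 6 of the Col-0 libraries, or with RLE size factors, the RNAi-MARS groups alone, no filter on low counts or the replicate block.

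**Figure D3:**
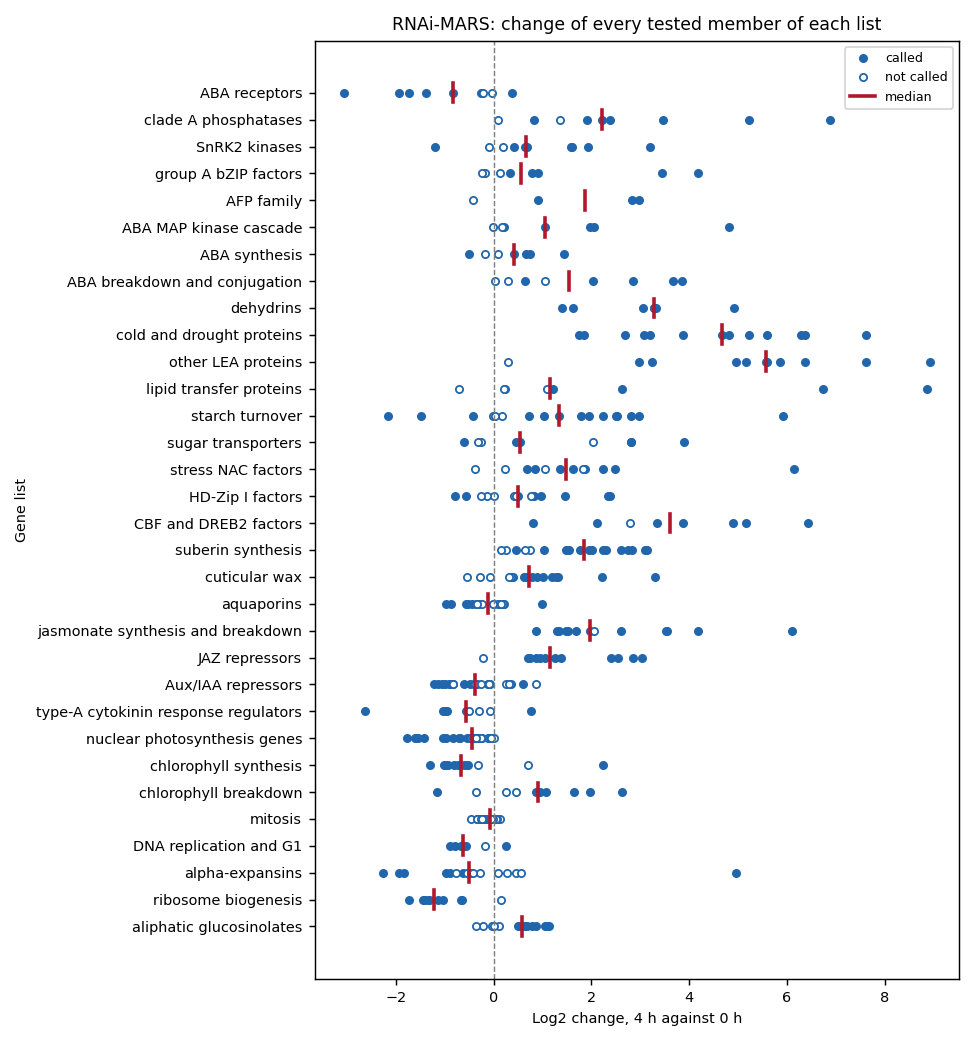
Log2 change from 0 h to 4 h in RNAi-MARS of every tested member of 32 gene lists, with filled points for called members, open points for the others, a bar at the list median and a dashed line at 0. Lists of dehydrins, cold and drought proteins and other LEA proteins have all or nearly all members called to the right, and 9 of 10 genes of ribosome biogenesis and 9 of 12 of chlorophyll synthesis are called to the left.

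Jasmonate is a lipid hormone of wounding and defence, and of 13 genes for its synthesis and breakdown 12 rose and none fell (median 1.97). AOC2 stood at 27, 9.7 and 15.2 CPM at 0 h and 348, 303 and 289 CPM at 4 h (4.17 ± 0.33), LOX3 rose by 3.52 ± 0.57 and CYP94B3, which oxidizes the active hormone, from 0.785 to 56.6 CPM (6.11 ± 0.53). Of 12 JAZ repressors, early targets of the hormone, 11 rose (median 1.15), with JAZ1 going from 15.1 to 88.9 CPM (2.55 ± 0.33), JAZ5 rising by 3.03 ± 0.52 and JAZ10 by 2.40 ± 0.54. MYC2, the main jasmonate factor, rose by 1.22 ± 0.25. VSP2, a late jasmonate marker, varied widely with 85.4, 6.17 and 17 CPM at 0 h and 1380, 997 and 502 CPM at 4 h. Of 6 touch and wounding genes 3 rose and 2 fell, beside 21.6% and 21.0% of all features. The number that fell was 1 without both libraries A, 0 h library B, 4 h library A or 4 h library B. The touch gene TCH2 fell (-0.72 ± 0.18), and TCH3 (-0.87 ± 0.45) was not called.

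Of 24 Aux/IAA repressors, which auxin induces, 11 fell (median -0.39), with IAA1 (-1.22 ± 0.17) and IAA17 (-1.15 ± 0.18) lowest, and the number that fell was 6 without both libraries A, and 7 without 4 h library B. Of 6 auxin transport genes 4 fell, among them the exporter PIN3, from 228, 269 and 232 CPM to 101, 115 and 134 CPM (-1.06 ± 0.14). Of 9 type-A cytokinin response regulators 5 fell, with ARR15 going from 2.94 to 0.469 CPM (-2.64 ± 0.41) and ARR8 by -1.04 ± 0.10, and ARR16 rose (0.77 ± 0.24), a call lost without 0 h library A, 0 h library C, 4 h library A, 4 h library C or both libraries A, or with the RNAi-MARS groups alone (adjusted p = 0.0679 to 0.186). The number that fell was 3 without both libraries A. In the gibberellin list 5 of 17 rose and 2 fell, beside 21.6% and 21.0% of all features, and the number that fell was 0 without 0 h library B or 4 h library B, and 1 without both libraries A or 0 h library A. GA2OX6, which inactivates gibberellins, rose from 4.18 to 26.6 CPM (2.67 ± 0.33), and the receptors GID1A (0.95 ± 0.12), GID1B (1.16 ± 0.17) and GID1C (1.01 ± 0.08) all rose. Of 18 ethylene genes 4 rose and 4 fell, which is near the 21.6% and 21.0% of all features and so is no result about the list. The number that rose was 2 without both libraries A, 0 h library A or 0 h library C, and the number that fell was 1 without both libraries A, 4 h library A or 4 h library C, and 2 without 0 h library A, 0 h library B or 0 h library C. EBF2, which degrades ethylene factors, rose by 1.09 ± 0.17 and the synthase ACS4 fell (-2.56 ± 0.52). Of 10 brassinosteroid genes 2 rose and 4 fell, beside 21.6% and 21.0% of all features. BAS1, which inactivates the hormone, fell from 24.8 to 7.14 CPM (-1.81 ± 0.21) and the synthesis gene BR6OX2 rose (0.83 ± 0.16). Counts of ARR8 hold divided reads in at least 6 of the 12 libraries, so its values are uncertain.

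Morning MYB factors fell in 6 of 8 cases (median -1.82). Of these, LHY and CCA1 peak at dawn and repress evening genes through the evening element. LHY stood at 367, 404 and 430 CPM at 0 h and 16.3, 23.5 and 18 CPM at 4 h (-4.37 ± 0.17, adjusted p = 4.72e-08). CCA1 was at 346, 338 and 377 CPM and 86.1, 76.1 and 60.8 CPM (-2.25 ± 0.16). In both, the times were far apart and libraries of a time close together. RVE8 (-2.53 ± 0.24), RVE1 (-2.39 ± 0.15), RVE2 (-1.40 ± 0.19) and RVE4 (-1.20 ± 0.12) fell, and AT5G52660, of the same family, rose (0.66 ± 0.13). Of 16 day and evening genes 10 rose and 4 fell (median 1.24). PRR5 was at 0.117, 0.674 and 0.724 CPM and 24.2, 24.5 and 34.5 CPM (5.74 ± 0.41). FKF1 rose by 6.55 ± 0.50, ELF4 by 3.37 ± 0.41 and PRR3 by 3.23 ± 0.26, while LUX (0.19 ± 0.20), a partner of ELF4, was not called. LNK2, a morning coactivator, fell from 1180 to 244 CPM (-2.27 ± 0.17), as did LNK3 (-1.73 ± 0.09) and LNK4 (-1.49 ± 0.11). The harvest hours are not in the labels, so the elapsed time and the treatment cannot be told apart for these genes. LNK4 overlaps the exons of a neighbour on the same strand and is uncertain.

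**Figure D4:**
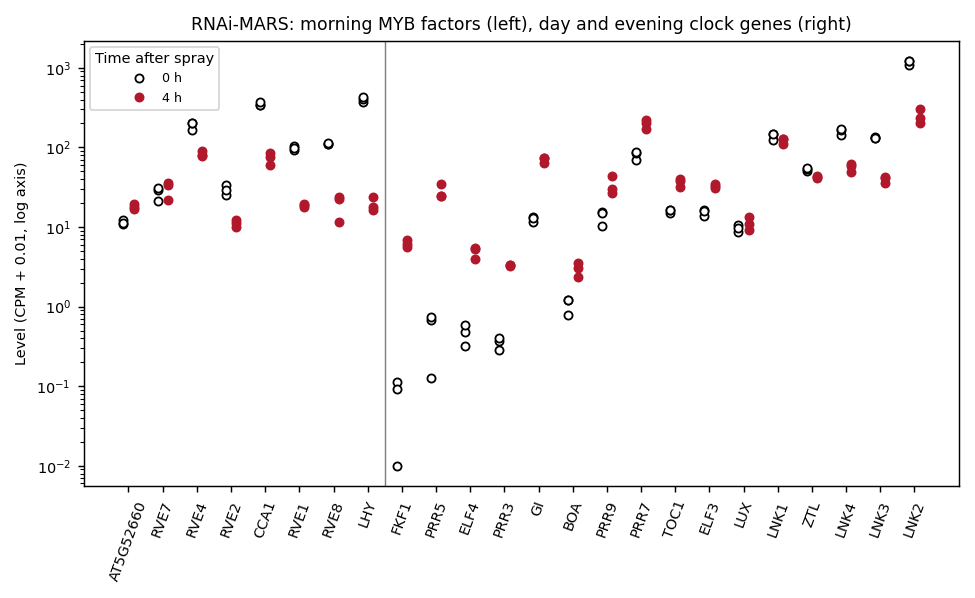
Level in every RNAi-MARS library of the 24 tested clock genes, in CPM on a log axis (CPM plus 0.01), with open circles for the 3 libraries at 0 h and filled circles for the 3 at 4 h. LHY goes from 400 to 19.3 CPM on average and PRR5 from 0.505 to 27.7 CPM, with no overlap between the times in either.

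PRR5 (chr5:8358547-8358846 on the minus strand), which rose, is shown because it holds the evening element, in capitals in either orientation, 292 and 187 bases before the gene start. LHY (chr1:37872-38171 on the minus strand), which fell, holds ACGTG cores, in capitals, at 207, 168, 80 and 79 bases, and is shown because the core is also present before genes that went down.
PRR5: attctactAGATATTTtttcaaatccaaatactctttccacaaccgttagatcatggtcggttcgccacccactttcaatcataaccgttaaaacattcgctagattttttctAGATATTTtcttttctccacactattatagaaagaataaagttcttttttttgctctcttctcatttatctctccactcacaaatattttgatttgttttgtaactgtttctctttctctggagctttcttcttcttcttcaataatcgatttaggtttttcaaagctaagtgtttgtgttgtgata
LHY: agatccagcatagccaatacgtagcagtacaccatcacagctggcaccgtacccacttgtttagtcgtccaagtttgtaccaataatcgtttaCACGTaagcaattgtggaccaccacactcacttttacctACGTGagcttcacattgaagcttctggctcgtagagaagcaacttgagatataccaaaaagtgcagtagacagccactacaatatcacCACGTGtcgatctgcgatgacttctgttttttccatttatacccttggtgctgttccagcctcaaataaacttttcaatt

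Nuclear genes for photosynthesis fell in 12 of 26 cases and rose in none (median -0.45). The 4 Rubisco small subunit genes share reads, and their sum was 23100, 21500 and 23200 CPM at 0 h and 14200, 7530 and 11200 CPM at 4 h. GAPA and GAPB (-1.43 ± 0.19) fell with RCA. Of light-harvesting genes, LHCB3 had a log2 change of -0.69 ± 0.16 and was called, while LHCB4.1 (-0.30 ± 0.15) and LHCA3 (-0.30 ± 0.15) were not called. LHCB1.1, LHCB1.2 and LHCB1.3 together stood at 31200, 33700 and 36000 CPM and then 30800, 21300 and 32300 CPM, which overlap. Library B was the lowest at 4 h in each of these sums. Genes of chlorophyll synthesis fell in 9 of 12 cases, with CHLH going from 2530 to 1030 CPM (-1.29 ± 0.14), CAO (-1.02 ± 0.13) and HEMA1 (-0.94 ± 0.13) lower too. PORB, a light-dependent reductase, rose instead, from 164, 200 and 162 CPM to 937, 690 and 866 CPM (2.24 ± 0.25). Of 10 chlorophyll breakdown genes 6 rose, with SGR2 (2.63 ± 0.37), PAO (1.97 ± 0.13) and PPH (1.64 ± 0.10) highest and AT1G44000 lower (-1.15 ± 0.20). Of 75 plastid-encoded genes tested 7 fell and none rose (9.33% called beside 42.6% of all features, median -1.11), and 0 h library C held 0.104% plastid counts beside at most 0.0256% in the other RNAi-MARS libraries. PAO overlaps the exons of a neighbour on the same strand and is uncertain.

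Ribosome biogenesis fell in 9 of 10 genes (median -1.22). FIB2, a fibrillarin that methylates ribosomal RNA, stood at 60, 66.8 and 60 CPM at 0 h and 17.1, 23.5 and 15.2 CPM at 4 h (-1.73 ± 0.17), and NOP56 at 151, 169 and 155 CPM and 56.5, 66.4 and 56.9 CPM (-1.40 ± 0.10). Both were clearly apart between the times. The exception was NUC2, which was not called. Expansins loosen cell walls, and 6 of 16 fell, beside 21.0% of all features. Among them were EXPA8, from 91.4 to 19.1 CPM (-2.26 ± 0.30), and EXPA1, from 202 to 56.6 CPM (-1.83 ± 0.18). EXPA16 rose from 3.64, 4.1 and 3.29 CPM to 92.5, 127 and 121 CPM (4.96 ± 0.28). Of 8 genes of DNA replication and G1, 6 fell, with PCNA1 (-0.89 ± 0.15), PCNA2 (-0.79 ± 0.14), MCM5 (-0.66 ± 0.10) and CYCD3;1 (-0.64 ± 0.12) lowest. Of 21 mitosis genes 0 were called by edgeR, 0 by DESeq2 and 0 by limma-voom, with 2 at an unadjusted p under 0.05 in edgeR, and the number that fell was 1 without both libraries A or 4 h library A. The mitotic kinase gene CDKB1;2 had a log2 change of -0.45 ± 0.20. CYCD3;1 overlaps the exons of a neighbour on the same strand and is uncertain.

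Of 21 iron genes 7 fell and 1 rose, beside 21.0% and 21.6% of all features. IRT1, the root iron importer, stood at 3.56, 1.5 and 5.37 CPM at 0 h and 0, 0.0461 and 0.338 CPM at 4 h (-5.03 ± 0.99), and FRO2, the ferric reductase, fell by 1.84 ± 0.49 on the log2 scale. NAS4 (-1.76 ± 0.22) and the factors BHLH39 (-2.20 ± 0.46) and FIT (-1.02 ± 0.33) fell. The FIT call was lost without 0 h library A, 0 h library C or both libraries A, or with the RNAi-MARS groups alone (adjusted p = 0.0569 to 0.0801). IRT1 is expressed in the root epidermis, and 4 h library A, the lowest in root hair markers, was also the lowest in IRT1. At 0 h the order was not shared, with library A highest in root hair markers and library C highest in IRT1. The part of root content in this result was not tested. Of 13 nitrogen genes 3 rose and 4 fell, beside 21.6% and 21.0% of all features, and the number that fell was 2 without 0 h library B. The transporter NRT1.8 (2.64 ± 0.56), the accessory protein NRT3.1 (1.69 ± 0.39) and the glutamine synthetase GLN1.1 (1.72 ± 0.39) rose, and NRT1.5, which loads nitrate to the xylem, fell from 184 to 62 CPM (-1.57 ± 0.28). Of 18 phosphate starvation genes 2 rose, RNS1 (7.11 ± 0.77) and PAP17 (1.50 ± 0.51), and 3 fell, beside 21.6% and 21.0% of all features. The PAP17 call was lost without 0 h library B, 0 h library C, 4 h library A, 4 h library B or both libraries A, or with no filter on low counts (adjusted p = 0.0592 to 0.141). Library B stood apart in this list at 4 h, where the summed level was 1090, 2020 and 638 CPM, beside 1220, 929 and 819 CPM at 0 h. The median log2 change of the list was 0.52, and -0.10 without that library.

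Of 16 aliphatic glucosinolate genes 11 rose and none fell (median 0.57), with MYB76 (1.13 ± 0.17), CYP79F1 (1.07 ± 0.15), SOT17 (1.04 ± 0.14) and MAM1 (0.88 ± 0.14) highest, and the regulators MYB28 (-0.23 ± 0.13) and MYB29 were not called. Of 5 indolic genes 3 rose, with CYP83B1 at 0.89 ± 0.21, and the number was 1 without 0 h library B, 0 h library C or 4 h library B. Of 18 flavonoid genes 3 rose and 4 fell, which is near the 21.6% and 21.0% of all features and so is no result about the list. The number that fell was 2 without both libraries A, 4 h library B or 4 h library C. CHS, the entry enzyme, fell from 95.1 to 30.9 CPM (-1.62 ± 0.35), and TT7, a later hydroxylase, was also lower (-0.92 ± 0.23). The anthocyanin factor PAP1 rose from 2.11, 0.519 and 0.641 CPM to 26, 21.5 and 11.4 CPM (4.17 ± 0.57). The myrosinase-binding gene PBP1 (0.74 ± 0.16) rose with BGLU24, and PYK10, the main ER body glucosidase, was not called. Counts of CYP79F1 and PBP1 hold divided reads in at least 6 of the 12 libraries, so their values are uncertain.

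Heat shock genes rose in 13 of 17 cases (median 1.34), and the number that rose was 8 without both libraries A. HSP17.4 stood at 1.21, 1.87 and 1.17 CPM at 0 h and 12.4, 10.2 and 11.9 CPM at 4 h (3.04 ± 0.50). HSP17.6A (4.22 ± 0.95), HSP22.0 (3.80 ± 0.83) and the factor HSFA2 (3.04 ± 0.79) rose from low levels, HSP70 from 74.2 to 166 CPM (1.16 ± 0.25). The HSFA2 call was lost without both libraries A (adjusted p = 0.0596), and DESeq2 gave HSFA2 no adjusted p. Of 18 tested salicylate and defence genes 7 rose, beside 21.6% of all features. SARD1 (3.17 ± 0.54), ALD1 (2.81 ± 0.65) and EDS5 (1.10 ± 0.22) rose, while PR1 and PR2 were not called. The summed level of the list was 205, 126 and 151 CPM at 0 h and 187, 324 and 178 CPM at 4 h, which overlap. Of 8 antioxidant enzymes 4 rose and 2 fell, beside 21.6% and 21.0% of all features. The number that fell was 1 without 0 h library B, 0 h library C or 4 h library B. It was also 1 with the RNAi-MARS groups alone or no filter on low counts. CAT1 rose from 19 to 100 CPM (2.40 ± 0.20) and APX1 by 0.64 ± 0.13.

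The stress-induced linker histone HIS1-3 rose from 31.1, 38.4 and 22.9 CPM to 59.1, 104 and 54.2 CPM (1.24 ± 0.30), and the main linker histone AT1G06760 by 0.53 ± 0.10. Of 12 polycomb and H3K27 demethylase genes 3 fell and 2 rose, which is near the 21.0% and 21.6% of all features and so is no result about the list. CLF (-0.38 ± 0.08), the main H3K27 methyltransferase of the shoot, and LHP1 (-0.44 ± 0.09), a reader of its mark, fell, and JMJ30 (1.43 ± 0.22) and VRN2 (0.38 ± 0.09) rose. Of 14 RNA silencing genes 7 fell, beside 21.0% of all features, with HYL1 (-0.60 ± 0.09), AGO4 (-0.58 ± 0.10) and HEN1 (-0.54 ± 0.10) lowest. DCL1 and AGO1, the core of the microRNA pathway, were not called. HYL1 overlaps the exons of a neighbour on the same strand and is uncertain.

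Of 332 long non-coding RNA genes tested, 59 rose and 28 fell (26.2% called beside 42.6% of all features). AT4G17098 fell from 13.2 to 2.8 CPM (-2.24 ± 0.21), and AT3G21755 (1.77 ± 0.17), AT3G08375 (2.41 ± 0.24), AT1G04247 (2.60 ± 0.27) and AT1G26208 (1.53 ± 0.12) rose, all annotated as non-coding. Among transposable elements the call was made for 70 higher and 70 lower of 574 (24.4% beside 42.6%). The deepest fall was that of AT5TE49725, from 11.3 to 0.889 CPM (-3.68 ± 0.19), and the gene AT5G35777 had close values, from 11.3 to 0.877 CPM (-3.70 ± 0.19). AT4TE42860 rose from 22.4 to 104 CPM (2.21 ± 0.12). Counts of AT1G26208, AT5TE49725, AT5G35777 and AT4TE42860 hold divided reads in at least 6 of the 12 libraries, so their values are uncertain.

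Among tissue markers, 1 of 8 root hair genes fell, beside 21.0% of all features, and the number was 0 without both libraries A, 0 h library A, 4 h library A or 4 h library C. Of 6 vascular genes 2 rose, beside 21.6% of all features. The number that rose was 0 without 0 h library B, 0 h library C or 4 h library B, and 1 without 4 h library C, or without any 1 of 3 of the Col-0 libraries, or with no filter on low counts. Of 3 epidermis genes 0 were called by edgeR, 0 by DESeq2 and 0 by limma-voom, with 0 at an unadjusted p under 0.05 in edgeR. ATML1 (-0.24 ± 0.14) and PDF1 (-0.30 ± 0.17), of the shoot epidermis, were not called. In the stomatal lineage 2 of 10 fell, which is near the 21.0% of all features and so is no result about the list. They were STOMAGEN (-0.68 ± 0.17), a signal from the mesophyll, and ERL1 (-0.51 ± 0.15). The ERL1 call was lost without 0 h library B, 4 h library C or both libraries A (adjusted p = 0.0561 to 0.0897). The number that fell was 1 without 0 h library B or 4 h library C, and 4 without both libraries A, 0 h library A or 4 h library A. Of 6 tested meristem genes 1 rose, with a log2 change of 1.85, and 1 fell, beside 21.6% and 21.0% of all features. The fall was that of the root patterning factor SCR, from 45.9 to 31.5 CPM (-0.54 ± 0.09).

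The same contrast in Col-0 called 8979 features (40.0%), 4646 higher (20.7%) and 4333 lower (19.3%), and changes of at least 2-fold for 7.32% upward and 4.46% downward. Of the RNAi-MARS calls 75.4% were also called in Col-0, and of the Col-0 calls 80.3% in RNAi-MARS. Of the 7211 features called in both, 7209 had the same direction. The other two, named after their values were seen, were AT2G17630, described below, and CYP82C2, which had at most 1.93 CPM in any library. Across tested features, which are not independent replicates, the log2 changes correlated with Pearson's r of 0.867 and Spearman's rho of 0.840. A test of the difference between the 2 responses called 0 features with edgeR (0.0%), with a smallest adjusted p of 0.946 and 1076 features at an unadjusted p under 0.05. With limma-voom 0 were called and with DESeq2 4. A count of 0 does not show that the responses were equal.

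**Figure D5:**
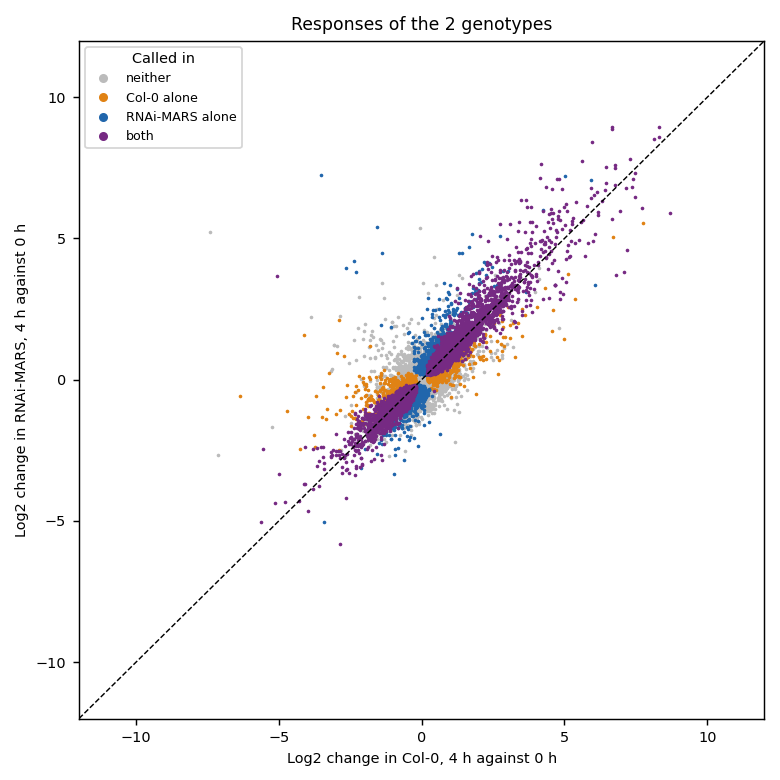
Log2 change from 0 h to 4 h in RNAi-MARS (vertical) against Col-0 (horizontal) for 22465 tested features, with features called in both, in RNAi-MARS alone, in Col-0 alone and in neither in different colours, and a dashed line of equal change. Of the 7211 features called in both, 7209 lie in the quadrants of equal sign.

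The 5 features with the smallest p for the difference were ABCG27, TBL35, RVE1, CMT3 and AT3G26510, and none passed the edgeR correction. ABCG27, a transporter gene, stood in RNAi-MARS at 2.51, 1.81 and 2.28 CPM at 0 h and 24.8, 23.6 and 14.6 CPM at 4 h, and in Col-0 at 8.03, 5.92 and 4.85 CPM and 15.6, 16.8 and 11.2 CPM. Its log2 change was 3.24 ± 0.27 in RNAi-MARS and 1.22 ± 0.24 in Col-0, a difference of 2.02 ± 0.35 (unadjusted p = 0.000119, DESeq2 adjusted p = 0.00169). The 0 h libraries of RNAi-MARS were all below those of Col-0. RVE1 fell by less in RNAi-MARS, with log2 changes of -2.39 ± 0.15 and -3.46 ± 0.16 and a difference of 1.07 ± 0.21 (unadjusted p = 0.000257, DESeq2 adjusted p = 0.0139). AT3G26510 had a difference of 0.59 ± 0.13, which DESeq2 also called (adjusted p = 0.0139). TBL35 and CMT3, a DNA methyltransferase, fell further in RNAi-MARS, with differences between the responses of -0.60 ± 0.11 and -0.53 ± 0.11. Neither tool called these differences. AT5G17340 was the fourth DESeq2 call (adjusted p = 0.00652), with a large and imprecise difference of 11.1 ± 2.22 by DESeq2 and 10.8 ± 2.56 by edgeR.

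Genes of DNA replication and G1, a list that includes CYCD3;1, KRP1 and KRP2, fell in 6 of 8 cases in RNAi-MARS and in 2 in the wild type. In each genotype 1 rose, and the difference over the list was not tested. The summed level of the list at 0 h was 177, 183 and 172 CPM in RNAi-MARS and 153, 154 and 164 CPM in Col-0. At 4 h it was 132, 110 and 126 CPM in RNAi-MARS and 138, 152 and 126 CPM in Col-0. MCM2, of the replicative helicase, had log2 changes of -0.61 ± 0.12 and 0.10 ± 0.12, a difference of -0.71 ± 0.17 (unadjusted p = 0.00131). None of the 21 mitosis genes was called in RNAi-MARS and 7 rose in the wild type, beside 20.7% of all features there. CYCB1;2 had log2 changes of -0.13 ± 0.13 in RNAi-MARS and 0.53 ± 0.13 in Col-0 (unadjusted p of the difference = 0.00449). At 0 h the summed level of the mitosis genes was 245, 212 and 212 CPM in RNAi-MARS and 169, 183 and 189 CPM in Col-0. These did not overlap, and the difference between the genotypes at 0 h was not tested. At 4 h it was 234, 177 and 216 CPM in RNAi-MARS and 203, 254 and 224 CPM in Col-0, which overlap. LHY fell by more in Col-0 (-5.15 ± 0.17), a difference of 0.77 ± 0.21 (unadjusted p = 0.00341). Counts of CYCB1;2 hold divided reads in at least 6 of the 12 libraries, so its values are uncertain.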

How the data were processed

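Polyadenylated RNA of 12 whole-seedling libraries was sequenced. Tools listed by the submitters' processing notes include STAR 2.7.2a, Trimmomatic 0.36 and the featureCounts program (Subread 1.6.5), with TAIR10 as the build. The authors deposited 1 table of estimated counts per library, per the labels and the values, in which 5.31% to 7.60% of features were not whole as happens where a read is divided between features, and nothing was normalized. Whether counting used strand is not given in the sources used here. Features whose counts hold divided reads in at least 6 of the 12 libraries, or whose exons overlap a neighbour on the same strand, are given as uncertain.

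Counts were rounded, scaled to CPM (counts per library total, TMM) and filtered (filterByExpr, minimum count 10), and groups were compared by the quasi-likelihood test of edgeR 4.0.16 (R 4.3.3) over all 12 libraries, with 1 coefficient per group. Called means a Benjamini-Hochberg adjusted p under 0.05 over all tested features. Rose and fell are used of called features, and ± is the standard error of a log2 change, the change divided by the root of the F statistic. Alternatives were other size factors, other filters, DESeq2 1.42.0, limma-voom (limma 3.58.1), the compared groups alone, nuclear genes alone, a replicate block and leaving out libraries. Totals of 19020202 to 38787804 counts per library set the counting error.

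The text names most, not all, of the features a rule gives: the 15 called features with the largest change in each direction in CPM and in fold (groups separated, mean of at least 5 CPM in the higher group for fold), up to 4 members of each gene list in each direction, members not called, the 5 smallest p for the difference between responses, up to 5 transposable elements and 5 non-coding RNAs, and the marneral cluster. Some further list members, such as PYR1, ABI1, PP2CA, OST1, ERD14, HSP70 and MCM2, were named after their values were seen. The gene lists and the comparison were chosen with earlier results of these data known. Promoter windows are from the RefSeq TAIR10.1 genome and annotation.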

Additional observations from a re-analysis of the deposited data

Results flagged for a closer look

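AT2G17630 was called in both genotypes in opposite directions, with the libraries of the times separated in each. In RNAi-MARS it stood at 11.3, 12.1 and 8.77 CPM at 0 h and 7.74, 8.38 and 7.97 CPM at 4 h, a log2 change of -0.41 (edgeR adjusted p = 0.0361). The Col-0 libraries had 9.52, 8.25 and 7.76 CPM at 0 h and 12.1, 9.66 and 12.6 CPM at 4 h, a log2 change of 0.43 (edgeR adjusted p = 0.0309). The difference between the responses was -0.846 ± 0.202 on the log2 scale, with an unadjusted p of 0.00139 and an adjusted p of 0.946, so it did not pass the correction over all features in edgeR. The smallest gap between the times was between 8.38 and 8.77 CPM in RNAi-MARS and between 9.52 and 9.66 CPM in Col-0. No group holds more than 3 libraries, so a single library far from the others was not tested for.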

How the results depend on the processing

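The RNAi-MARS response kept its size under every alternative run, with 4603 to 5120 features higher and 3812 to 4879 lower under other size factors, filters, feature sets, tools and fits, 4106 and 4211 without both libraries A of RNAi-MARS, an alternative chosen after seeing the data, and 3808 to 5015 higher and 3704 to 4747 lower with 1 library left out. Of the counts over all features, the one outside 1.5 times its main value was that of differences between the 2 responses, 0 by edgeR and 4 with DESeq2. For 274 named features, 5673 of 5749 alternative values kept their direction and side of the threshold, 52 lost a call, 18 gained one and 6 changed sign. All 6 were of CYP71A16, which is not called, at 0.249 with limma-voom, 0.205 with the replicate block and 1.172 without both libraries A, and from -0.52 to 0.961 with 1 library left out; the cause was not tested. The labels do not say whether the letters A, B and C pair libraries. Deviations from the group means of same-lettered RNAi-MARS libraries correlated at -0.01, -0.30 and 0.10, and so few libraries cannot settle it. With the replicate block 4876 features were higher and 4817 lower, with no called gene of the text lost. Depth limits what can be said of genes with few counts at 0 h.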
